A study of Caenorhabditis elegans with 12 samples.

Results

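In Caenorhabditis elegans animals carrying the alleles meg-3(ax3055) and meg-4(ax3052) together, small RNAs were compared between RNA treated with 5′ polyphosphatase and RNA left untreated. The comparison took 4 of the 12 libraries of the series by their genotype and RNA treatment labels, 2 of treated and 2 of untreated RNA. RNA came from whole young mothers that had been starved for synchrony and kept at 20 °C, and all groups, controls included, were fed HT115 bacteria making a 400 nt double-stranded RNA against pos-1. Treated and untreated RNA of the wild type N2 and of the mutant rde-11(hj37), 2 libraries each, served for comparison. In meg-3 meg-4 the titles of replicate 2 name a different strain number from those of replicate 1, although the genotype label is the same for all 4 libraries. The labels do not say whether replicates were separate cultures, so the p-values measure the spread between these libraries, which may be technical.

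The proteins MEG-3 and MEG-4 are disordered and needed to assemble P granules, condensates in which germ cells keep RNA and small RNA factors. In worms, double-stranded RNA is cut by Dicer into primary small interfering RNAs, which carry a 5′ monophosphate and are loaded on the Argonaute RDE-1. RNA-dependent RNA polymerases then copy the targeted transcript into secondary small RNAs, the 22G RNAs, whose 5′ end is a triphosphate and which load onto worm-specific Argonautes of the WAGO group. MicroRNAs and piRNAs, which are called 21U RNAs in worms, also carry a 5′ monophosphate. The library kit (TruSeq) joins its adapter to a 5′ monophosphate, and polyphosphatase turns a 5′ triphosphate into a monophosphate, so treated RNA gives 22G RNAs a way into the library that untreated RNA lacks.

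The treated libraries held 4730813 and 5278777 reads assigned to genes, and the untreated ones 5021549 and 4830748. Levels are given in fpm, the reads of a gene scaled so that those of each library sum to 1000000. Treated and untreated columns come from separate tables, so each value is a share of its own library, and 3 reads correspond to 0.568 to 0.634 fpm. To test the genotype label, meg-4, listed as C36C9.1, was examined. Its small RNAs were at 0 and 0.379 fpm in treated and 0 and 0 fpm in untreated RNA of the mutant. In N2 they were at 72.5 and 71.4 fpm in treated and 0.219 and 0 fpm in untreated RNA. Those of meg-3, listed as gei-12, were at 1.06 and 1.33 fpm in treated and 1.19 and 0.207 fpm in untreated RNA of the mutant. In N2 these were at 9.78 and 14.3 fpm in treated and 0.219 and 1.83 fpm in untreated RNA. Untreated RNA is low for either gene in both strains and so does not test the label. Markers of the tissues of a whole animal were present in all 4 libraries, among them the muscle microRNA mir-1 at 249 and 195 fpm in treated and 527 and 615 fpm in untreated RNA. The neuronal microRNAs lsy-6 and mir-124 were low, with mir-124 at 8.46 and 7.77 fpm in treated and 28.3 and 25.9 fpm in untreated RNA, and mir-35, a microRNA of embryos, stood at 3280.4 and 2552 fpm in treated and 11349.5 and 10056 fpm in untreated RNA. The treated replicates differed from each other more than in the other strains. Of 919 protein-coding genes averaging 50 fpm or more over the 4 libraries, 110 were over 2-fold higher in treated replicate 2 than in treated replicate 1 and 0 the other way, whereas treated RNA of N2 and of rde-11 had 0 such genes in either direction. The kinesin gene klp-7, for example, was at 694 and 1295 fpm in the treated replicates and 104 and 139 fpm in the untreated ones.

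Treated libraries were made mostly of small RNAs from protein-coding genes, and untreated ones mostly of microRNAs. Protein-coding genes held 58.07% ± 4.24 of the reads in treated RNA and 3.43% ± 0.325 in untreated RNA (mean ± SD, n = 2 each, here and below). MicroRNAs held 22.4% ± 2.58 in treated and 67.4% ± 0.0972 in untreated RNA, while piRNAs held 6.17% ± 0.807 in treated and 15.7% ± 0.390 in untreated RNA. Long intergenic noncoding RNAs held 3.43% ± 0.156 in treated and 0.050% ± 0.000191 in untreated RNA, and pseudogenes 3.13% ± 0.104 in treated and 0.0702% ± 0.00627 in untreated RNA. In each of these 5 classes both treated libraries lay outside the range of both untreated ones, although 2 libraries against 2 cannot give a two-sided exact permutation p under 0.33. Counting only reads outside microRNAs, protein-coding genes held 74.8% in treated and 10.5% in untreated RNA.

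**Figure D1:**
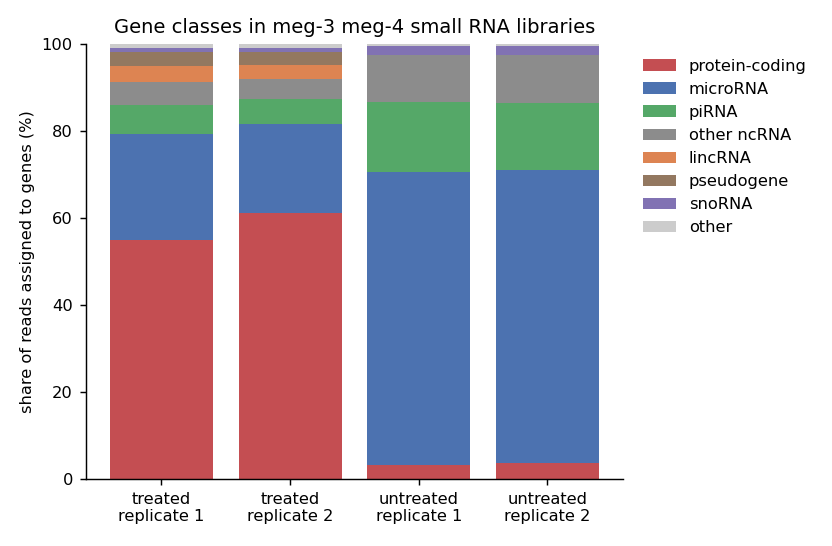
Share of the reads assigned to genes (%) in each gene class, as stacked bars, for the treated and untreated libraries of meg-3 meg-4. Protein-coding genes took 55.1% and 61.1% in the treated libraries and 3.20% and 3.66% in the untreated ones.

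The reads were also spread over more genes after treatment. The 10 most abundant genes held 15.4% and 13.6% of the reads in the treated libraries, against 42.1% and 42.7% in the untreated ones. It took 126 and 182 genes to reach 50% of the reads in treated RNA, and 14 in either untreated library. Lines with identical values, among them mir-80 and K01F9.6, were each counted in these figures, so some reads enter more than once. The treated libraries had a read on 25430 and 25284 genes, and the untreated ones on 19689 and 19795. There were 284 genes, 256 of them protein-coding, with no read in either untreated library and at least 10 fpm in both treated ones, and 0 genes with the reverse pattern.

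Gene by gene, 15905 genes averaging 1 fpm or more were tested (limma on log2(fpm + 1), Benjamini-Hochberg adjusted p under 0.05). In treated RNA 9087 of them were higher and 5164 were lower. These are 57.1% and 32.5% of the genes tested, the background for a count over all classes. A count within 1 class, as in the gene lists below, is to be set against the share of that class. These shares follow for protein-coding genes, microRNAs and piRNAs. Log2 changes are treated minus untreated on this scale, where the added 1 fpm makes the change of genes with few reads too small. The direction followed the class. Of 9664 protein-coding genes 8436 were higher (87.3%) and 710 lower (7.35%), with a median change of 3.20, whereas 12 microRNAs were higher and 148 lower of 168, with a median of -1.50. Among piRNAs 115 were higher and 4071 lower of 5202 (median -1.15). Because fpm are shares, a second scale was used, on which the microRNAs averaging 50 fpm or more have a median change of 0. On this scale with microRNAs centred every change is 1.57 higher, 10802 genes were higher (67.9%) and 36 lower (0.226%), and 0 of the lower ones were protein-coding. The 5164 genes lower on the fpm scale became 2931 without treated replicate 2.

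**Figure D2:**
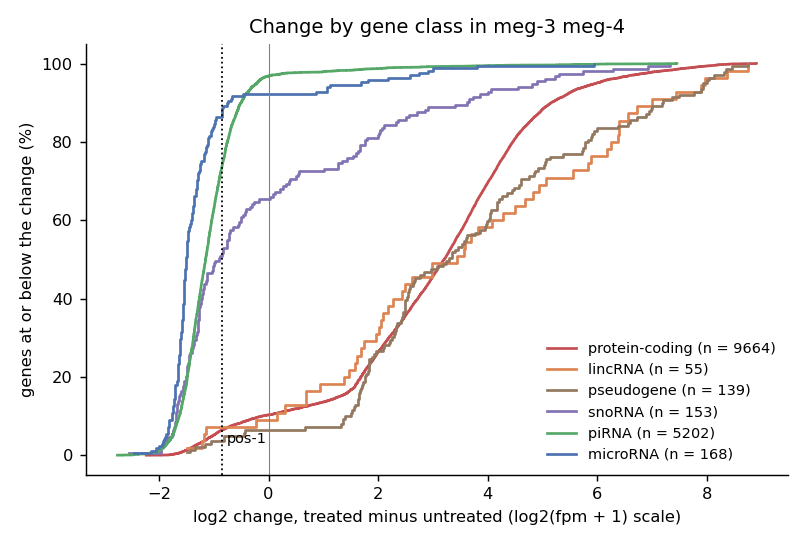
Cumulative share of genes (%) against the log2 change, treated minus untreated RNA of meg-3 meg-4, one line per gene class, for genes averaging 1 fpm or more. MicroRNA and piRNA genes rise steeply left of 0 (medians -1.50 and -1.15), protein-coding genes, lincRNA genes and pseudogenes lie mostly right of it, and the dotted line marks pos-1 at -0.86; with microRNAs set to a median change of 0, all lines move right by 1.57.

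MicroRNAs fell in share together. Among the 94 microRNA genes averaging 50 fpm or more, 92 were lower in treated RNA and 2 higher, with a median of -1.57. The most abundant one, mir-82 of the bantam-related mir-58 family, was at 31926 and 29858 fpm in treated and 98788 and 102753 fpm in untreated RNA (log2 change -1.71 ± 0.048 SE, limma adjusted p = 3.04e-05). Its relatives mir-58.1, mir-80 and mir-81 changed by -1.81, -1.53 and -1.55 on the log2 scale. The other microRNAs among the 10 most abundant in untreated RNA, mir-72, mir-57, mir-237, mir-235, mir-64 and mir-90, lay between -1.83 and -1.24. By DESeq2, 6 of 7 let-7 and lin-4 genes and 7 of 8 mir-35, 6 of 6 mir-51 and 5 of 6 mir-58 family genes were called lower. By limma all members tested of these 4 microRNA families were lower, also by edgeR and with the median gene centred. The medians were -1.49 for the 7 let-7 and lin-4 genes, which time larval development, -1.56 for the 8 genes of the embryonic mir-35 family, -1.76 for the 6 of the mir-51 family and -1.61 for the 6 of the mir-58 family, and with microRNAs centred these medians were 0.078, 0.008, -0.20 and -0.041, so that the sign turned for the first 2 families. The gene let-7 was at 2363 and 1999 fpm in treated and 6149 and 6052 fpm in untreated RNA. The largest drop at this level was that of mir-60, at 875 and 720.2 fpm in treated and 3606 and 3407 fpm in untreated RNA (-2.14), and the smallest among those called lower was that of mir-83 (-1.18, at 89.0 and 40.7 fpm in treated and 138 and 138 fpm in untreated RNA). On the scale with microRNAs centred, mir-83 was at 0.39 and not called, while mir-60 was at -0.57 (limma adjusted p = 4.87e-04).

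The 2 microRNA genes that rose at this level had treated values well above their untreated ones. The gene mir-262 was at 386 and 331 fpm in treated and 4.18 and 5.59 fpm in untreated RNA (log2 change 5.94 ± 0.23 SE, limma adjusted p = 4.55e-05). The gene mir-260, whose exon overlaps the noncoding gene F39E9.21, was at 147 and 137 fpm in treated and 20.1 and 20.5 fpm in untreated RNA (2.746 ± 0.19 SE, limma adjusted p = 1.34e-04). Their direction was that of most protein-coding genes, and opposite to the 92 lower microRNA genes at this level. In N2 the changes of mir-262 and mir-260 were 6.17 and 2.03.

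The piRNAs, which guide the Argonaute PRG-1 in the germline, moved much as microRNAs did. At 50 fpm or more, 326 of 337 piRNA genes were lower in treated RNA, with a median of -1.48, and with microRNAs centred this median was 0.085. The 3 most abundant lines, 21ur-12805, 21ur-5787 and 21ur-11046, held identical values, 946 and 822 fpm in treated and 3010.4 and 2789 fpm in untreated RNA (-1.71), so their reads cannot be told apart. They were followed by 21ur-3506 (-1.52) and 21ur-38 (-1.50). The lowest change at this level was that of 21ur-324, at 57.1 and 46.0 fpm in treated and 364 and 340.3 fpm in untreated RNA (-2.76 ± 0.19 SE, limma adjusted p = 1.35e-04), and it stayed lower with microRNAs centred (-1.19, limma adjusted p = 7.14e-04).

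A minority of piRNA genes rose, and many of these lie within other genes. Of the 115 called higher, 51 (44.3%) shared exon sequence, on either strand, with a protein-coding gene, lincRNA, pseudogene or antisense RNA, against 4.21% of all piRNA genes tested. The largest rise was that of 21ur-6424, at 2466 and 2367 fpm in treated and 9.96 and 16.4 fpm in untreated RNA (log2 change 7.45 ± 0.26 SE, limma adjusted p = 4.01e-05), which overlaps no annotated exon. It was followed by 21ur-10492 (7.29, overlapping F15D4.5), 21ur-2649 (7.26, overlapping none), 21ur-9719 (6.94, within linc-22) and 21ur-12947 (6.91, overlapping F02C12.3). Whether reads on these lines are piRNAs or 22G RNAs of an overlapping transcript cannot be told apart from counts per gene.

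Structural and other short noncoding RNAs were mixed. The ribosomal RNA gene rrn-2.1 was at 1842 and 1367 fpm in treated and 4671 and 4420.0 fpm in untreated RNA (-1.52), and the most abundant snoRNA gene, C51F7.3, at 1195 and 1078 fpm in treated and 3657 and 3659.9 fpm in untreated RNA (-1.69). Both changes lay near the microRNA median. Of 153 snoRNA genes tested, 42 were higher and 85 lower, and with microRNAs centred 70 were higher and 1 lower. The noncoding lines with the highest values in untreated RNA were K01F9.6, K01F9.7, F16A11.6 and F49E12.14. They overlap the microRNAs mir-80, mir-90, mir-71 and mir-85, and changed by -1.53, -1.61, -1.75 and -1.62. K01F9.6 held values identical to those of mir-80, and K01F9.7 to those of mir-90, so their reads cannot be told apart. Their likeness to microRNAs is therefore no separate result.

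The largest rises among protein-coding genes were those of genes with few reads in untreated RNA. C01F6.14 was at 3152 and 2953 fpm in treated and 4.18 and 6.83 fpm in untreated RNA, a log2 change of 8.90 ± 0.25 SE (limma adjusted p = 3.04e-05). W09C5.12 was at 6727 and 6591 fpm in treated and 14.3 and 16.97 fpm in untreated RNA (8.65). The genes W03H9.2 and F37D6.3 had a like contrast. W03H9.2 reached 6436 and 6236 fpm in treated and 11.7 and 16.8 fpm in untreated RNA, and F37D6.3 5564 and 5300.5 fpm in treated and 11.55 and 13.9 fpm in untreated RNA. The 10 genes with the largest rise were picked among those whose treated and untreated values did not overlap. That separation is therefore not a result. The named members of the 10 were bath-24, which encodes a BTB and MATH domain protein (8.78), the calponin gene cpn-4 (8.65), the F-box gene fbxb-14 (8.54) and fkb-8, a peptidyl-prolyl isomerase gene (8.47), and the remaining ones were K09B11.4 (8.73) and C44C10.5 (8.47). Their changes in N2 ran from 7.97 to 8.84, and the difference from N2 was not called for any of the 10.

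Long noncoding transcripts and pseudogenes rose too. Of 55 lincRNA genes tested, 48 were higher and 4 lower (median 3.43), and of 139 pseudogenes 129 were higher and 7 lower (median 3.29). The lincRNA linc-29 was at 11905 and 11524 fpm in treated and 22.5 and 30.8 fpm in untreated RNA (8.74 ± 0.18 SE, limma adjusted p = 2.98e-05), the largest rise of a lincRNA. The lincRNA linc-22 followed at 7876 and 7236 fpm in treated and 26.1 and 18.4 fpm in untreated RNA (8.36). The pseudogene F37H8.2 was at 5962 and 5819.9 fpm in treated and 15.3 and 16.4 fpm in untreated RNA (8.45).

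**Figure D3:**
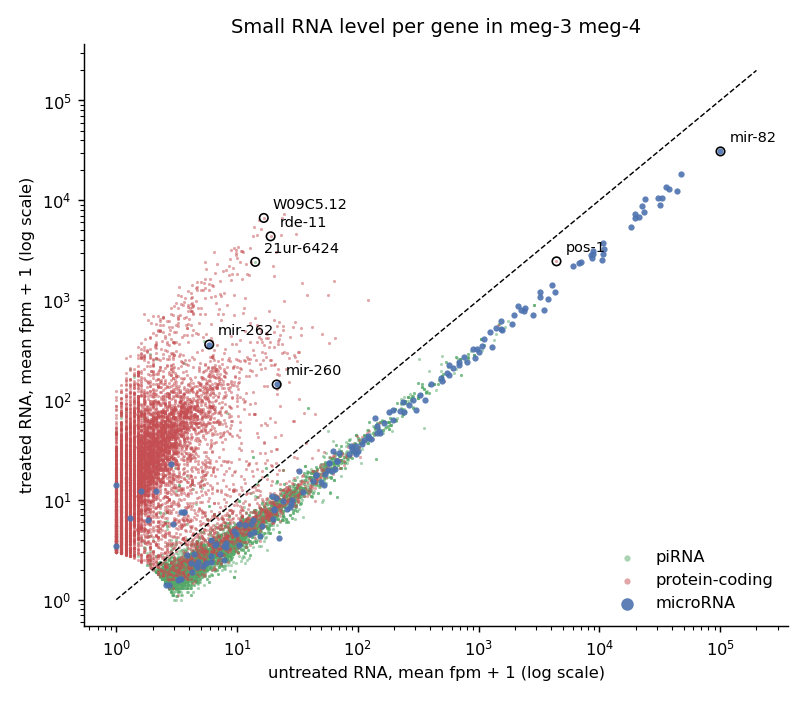
Mean fpm + 1 per gene of meg-3 meg-4 in treated RNA (vertical, log scale, n = 2) against untreated RNA (horizontal, log scale, n = 2), with equality as a dashed line, for piRNA, protein-coding and microRNA genes averaging 1 fpm or more. MicroRNAs and piRNAs form one narrow band below the line, protein-coding genes a cloud above it, and pos-1, at a mean of 2448 fpm in treated and 4419 fpm in untreated RNA, lies below the line near the band.

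Small RNAs from genes of the RNA interference machinery rose with treatment. Of the protein-coding genes tested 87.3% were higher, with a median of 3.20, or 5.83 for those averaging 50 fpm or more. Over all genes tested the median was 1.82. All 24 genes tested, of 26 listed as factors of exogenous RNA interference, were higher in treated RNA, with a median of 4.30. The largest change was that of rde-11, which encodes a zinc finger protein needed for amplification, at 4352 and 4367 fpm in treated and 17.3 and 18.6 fpm in untreated RNA (log2 change 7.84 ± 0.14 SE, limma adjusted p = 2.98e-05). The gene of the double-stranded RNA channel SID-1 was at 991 and 875 fpm in treated and 5.58 and 5.80 fpm in untreated RNA (7.12). The gene rrf-1, which encodes an RNA-dependent RNA polymerase, was at 148 and 216 fpm in treated and 0.398 and 2.07 fpm in untreated RNA (6.44 ± 0.44 SE, limma adjusted p = 1.36e-04). For the double-stranded RNA binding protein gene rde-4 the values were 208 and 219 fpm in treated and 4.18 and 3.52 fpm in untreated RNA (5.47), and for mut-16, the scaffold of Mutator foci, 62.1 and 108 fpm in treated and 1.59 and 4.76 fpm in untreated RNA (4.43). The Dicer gene dcr-1 changed by 4.28 and the Argonaute gene rde-1 by 4.19. The count was 20 of 24 without treated replicate 2 and 23 without treated replicate 1. Treated replicate 2 was above treated replicate 1 in 20 of these 24 genes, by a median of 0.50 on the log2 scale.

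Most Argonaute genes rose as well, as did 87.3% of the protein-coding genes tested. Of 10 WAGO genes tested, of 12 listed, 9 were higher (median 3.73), among them hrde-1, which acts in germline nuclei, at 741 and 805 fpm in treated and 14.1 and 20.7 fpm in untreated RNA (5.41 ± 0.23 SE, limma adjusted p = 5.17e-05). The count was 7 of 10 without treated replicate 2, which was above treated replicate 1 in 8 of the 10 genes (median 0.56). The germline genes wago-1 and wago-4 changed by 4.23 and 4.75. The only WAGO gene tested and not called was wago-10, at 3.59 and 1.14 fpm in treated and 0.996 and 2.28 fpm in untreated RNA, and its sign turned with the median gene centred and by edgeR. Of 10 other Argonaute genes, 8 were higher, such as the Piwi gene prg-1 (309 and 579 fpm in treated and 28.7 and 37.3 fpm in untreated RNA, 3.65) and csr-1 (268 and 515 fpm in treated and 17.7 and 24.2 fpm in untreated RNA, 4.10). The 2 lower ones were alg-3 and alg-4, whose products act in sperm development. The gene alg-3 was at 10.99 and 10.2 fpm in treated and 24.3 and 24.4 fpm in untreated RNA (-1.13 ± 0.21 SE, limma adjusted p = 0.00451; with microRNAs centred 0.44, not called), and alg-4 at 4.86 and 6.06 fpm in treated and 17.3 and 18.2 fpm in untreated RNA (-1.54 ± 0.23 SE, limma adjusted p = 0.00195; with microRNAs centred 0.023, not called).

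P granule genes and maternal CCCH zinc finger genes of the germline rose, as did 87.3% of the protein-coding genes tested. The treated replicates again differed. All 12 P granule genes tested, of 14 listed, were higher in treated RNA (median 3.79), meg-3 and meg-4 being too low to test. The P granule scaffold gene pgl-1 was at 222 and 411 fpm in treated and 8.96 and 16.1 fpm in untreated RNA (4.54 ± 0.41 SE, limma adjusted p = 3.11e-04), and pgl-3 at 189.8 and 314 fpm in treated and 5.18 and 9.52 fpm in untreated RNA (4.93). The Vasa-like helicase gene glh-1 changed by 3.46 and deps-1 by 3.73. In all 12 of these genes treated replicate 2 was above treated replicate 1, by a median of 0.97 on the log2 scale, and in 10 of 12 untreated replicate 2 was above untreated replicate 1. Without treated replicate 2, 7 of 10 were called, and without treated replicate 1, 10 of 12. The part of this replicate difference in the result was not tested. For such a difference between libraries of whole animals, another number of germ cells and another amount of small RNA per cell cannot be told apart.

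The CCCH genes other than pos-1 rose. The embryonic regulators mex-1, mex-5, mex-6 and pie-1 and the oocyte genes oma-1 and oma-2 were all higher in treated RNA, by 3.15, 3.21, 3.92, 3.47, 2.66 and 3.49. The gene mex-1, for example, was at 21.8 and 57.2 fpm in treated and 2.39 and 3.93 fpm in untreated RNA, and treated replicate 2 was again the higher one. Together the 6 genes held 98.5 and 189 fpm in treated and 6.57 and 10.4 fpm in untreated RNA. The gene pos-1, the target of the fed double-stranded RNA, was the one CCCH gene lower in treated RNA on the fpm scale, and it turned to higher with microRNAs centred.

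Known targets of the ERGO-1 pathway, whose silencing starts from endogenous primary small RNAs, rose too. All 7 genes tested were higher, with a median of 6.44. For these and for the F-box genes below, the background is that 87.3% of the protein-coding genes tested were higher. The median over all protein-coding genes tested was 3.20, or 5.83 for those averaging 50 fpm or more. Y47H10A.5 was at 2639 and 3428 fpm in treated and 18.5 and 21.3 fpm in untreated RNA (7.17 ± 0.20 SE, limma adjusted p = 3.04e-05), and K02E2.6 at 1899 and 1779 fpm in treated and 13.1 and 8.90 fpm in untreated RNA (7.28). C44B11.6 and E01G4.5 changed by 6.44 and 4.33. The F-box genes of the fbxa family, of which 75 of 188 could be tested, were higher in 72 cases and lower in 1, that of fbxa-202 (4.44 and 5.49 fpm in treated and 12.3 and 18.0 fpm in untreated RNA, -1.42; 0.14 with microRNAs centred).

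Housekeeping and somatic gene families had smaller median changes. Of 76 ribosomal protein genes 64 were higher and 0 lower, with a median of 1.86, below the protein-coding median of 3.20, and the count was 32 without treated replicate 2. With the median gene centred, 12 ribosomal protein genes were higher and 14 lower. Of 24 histone genes tested, of 72 listed, 23 were higher (median 2.72). Of the 6 yolk protein genes, which the intestine expresses, 3 were higher (median 0.88, but -0.90 with the median gene centred), such as vit-1 at 22.2 and 24.8 fpm in treated and 3.39 and 10.6 fpm in untreated RNA (1.78 ± 0.49 SE, limma adjusted p = 0.0174). With 1 library left out at a time, 1 to 5 yolk genes were called. Of 25 cuticle collagen genes tested, of 158 listed, 14 were higher and 7 lower (col-8, col-19, col-42, col-106, col-119, col-122 and col-140, with col-42 listed as Y69H2.14). The median was 1.25, but -0.53 with the median gene centred. These counts moved with single libraries. Without treated replicate 1, 9 were higher and 4 lower (median -0.035), 11 were higher and 3 lower without treated replicate 2 (0.20), 15 were higher and 6 lower without untreated replicate 1 (1.24), and 17 were higher and 0 lower without untreated replicate 2 (1.63). The lower ones had few reads, such as col-8 at 0.211 and 0 fpm in treated and 1.39 and 3.11 fpm in untreated RNA, and with microRNAs centred all 7 were above 0, from 0.057 for col-8 to 0.78 for col-19.

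Small RNAs from most sperm genes had a lower share in treated RNA. Of 20 major sperm protein genes tested, of 31 listed, 14 were lower and 0 higher in treated RNA, with a median of -0.94, against a median of 3.20 over all protein-coding genes tested. By DESeq2, 2 of 26 were lower, with a median of -1.05. A wider set of genes with names given for sperm or spermatogenesis (ssp, ssq, smz, spch, msrp, nspd, sss, spe and fer), drawn up after its values were seen, gave 45 lower and 7 higher of 59 tested of 70 listed (median -1.12). By DESeq2 this set had 3 lower and 7 higher of 68 (median -0.98). Without treated replicate 1, 8 major sperm protein genes and 24 of the wider set were called lower, and without treated replicate 2, 6 and 26. The gene ssp-34 was at 43.5 and 39.2 fpm in treated and 106 and 109 fpm in untreated RNA (-1.36 ± 0.19 SE, limma adjusted p = 0.00137), and ssq-1 at 42.7 and 49.3 fpm in treated and 104 and 135 fpm in untreated RNA (-1.35). Both pairs of values lay apart without overlap. Exceptions were spe-47, at 48.0 and 44.3 fpm in treated and 1.39 and 2.69 fpm in untreated RNA (3.99), and spe-41, which encodes a calcium channel of sperm, at 55.8 and 59.9 fpm in treated and 6.57 and 7.45 fpm in untreated RNA (2.88). With microRNAs centred, the medians turned to 0.63 for the major sperm proteins and 0.45 for the wider set, with 0 lower in either. In N2 the same sets had 14 of 20 and 43 of 62 genes lower, where 35.4% of all genes and 7.82% of protein-coding genes were. In rde-11 they had 20 of 20 and 47 of 62, where 38.6% of all genes and 8.31% of protein-coding genes were lower.

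**Figure D4:**
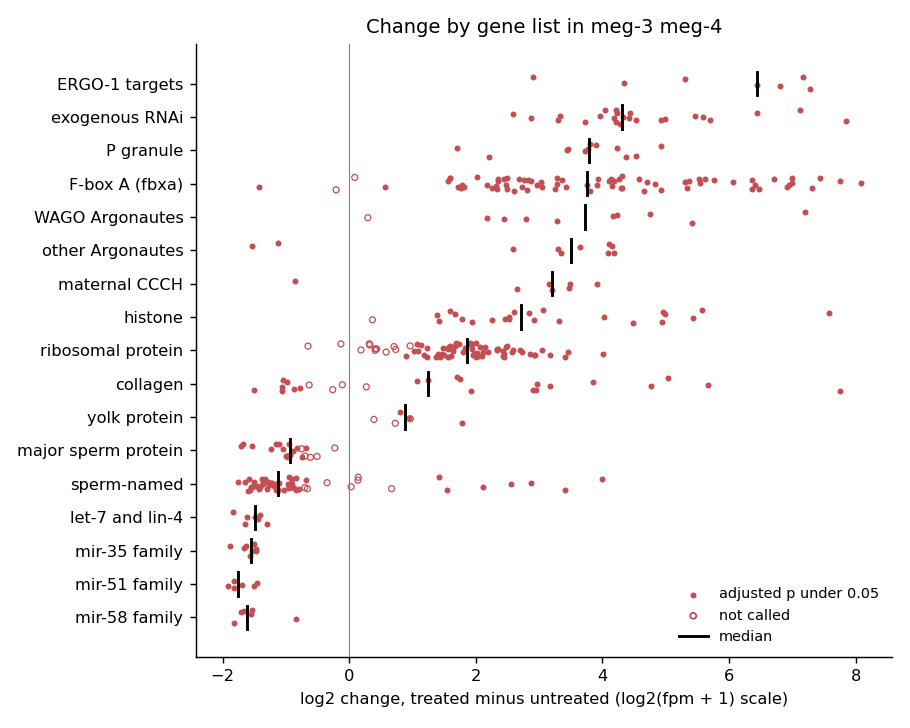
Log2 change between treated and untreated RNA of meg-3 meg-4 (treated minus untreated, log2(fpm + 1) scale) for each tested gene of 17 lists, with filled points for an adjusted p under 0.05, open points for genes not called and a black bar at the median. The lists run from ERGO-1 targets (median 6.44) at the top to the microRNA families below, and major sperm protein genes (median -0.94) lie left of 0 while collagens spread to both sides; with microRNAs set to a median change of 0, all points move right by 1.57 and the sperm medians lie right of 0.

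Of the 10 protein-coding genes with the largest drop, 1 is a sperm gene by name and 4 share exon sequence with other genes. Such overlap is common, at 32.3% of the protein-coding genes tested and 29.7% of those called lower. C25D7.16 was at 27.7 and 23.9 fpm in treated and 101 and 107 fpm in untreated RNA (-1.97 ± 0.20 SE, limma adjusted p = 4.50e-04), and its exons overlap C25D7.5 and mcm-3. F59A6.2 was at 151 and 157 fpm in treated and 495 and 531 fpm in untreated RNA (-1.73). The sperm gene smz-1 was at 26.6 and 25.2 fpm in treated and 75.9 and 82.4 fpm in untreated RNA (-1.57). The remaining drops were -1.71 for K08C9.2, -1.65 for W03C9.8, -1.64 for the tyrosine kinase gene kin-26 and -1.599 for ZK930.4. Exons of semo-1 (listed as Y37A1B.5, -1.69), of K03H1.12 (-1.65) and of the potassium channel gene egl-23 (-1.59) overlap piRNA genes. With microRNAs centred, none of these 10 genes was called, and their changes lay between -0.40 and -0.0061. Of the 710 protein-coding genes called lower, 68 (9.58%) share exon sequence with a piRNA gene, against 3.23% of those tested, and whether their reads are piRNAs was not tested.

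Small RNAs of pos-1, the target of the fed double-stranded RNA, were abundant in both kinds of library and were lower in treated RNA on the fpm scale but higher with microRNAs centred. They stood at 2776 and 2119.6 fpm in treated and 4869 and 3969 fpm in untreated RNA, from 13134 and 11189 reads in treated and 24449 and 19173 reads in untreated RNA. Both treated values lay below both untreated ones. The means were 2448 ± 464 fpm in treated and 4419 ± 636 fpm in untreated RNA (SD, n = 2 each), a log2 change of -0.86 ± 0.17 SE (limma adjusted p = 0.00549), whereas with microRNAs centred it was 0.71 ± 0.11 SE (limma adjusted p = 0.00228), so the direction depends on whether library totals or microRNAs are held equal. The call on the fpm scale ended without treated replicate 2 (adjusted p = 0.0998). As a description of order, pos-1 ranked near the bottom of the protein-coding genes. Of 919 averaging 50 fpm or more, 26 had a lower log2 change and 892 a higher one, the median being 5.83. Its neighbours in that order were spch-1, listed as C04G2.8, at -1.19 and lin-61, a chromatin regulator gene, at 0.63.

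In the wild type N2, pos-1 went the other way on the fpm scale. It stood at 8765 and 7819 fpm in treated and 3959 and 3679 fpm in untreated RNA, with both treated values above both untreated ones (1.12 ± 0.094 SE, limma adjusted p = 1.19e-04). The change in meg-3 meg-4 was lower than that in N2 by an interaction term, the difference between both changes, of -1.97 ± 0.20 SE (limma adjusted p = 0.00126), which edgeR and DESeq2 called too, as did limma with microRNAs centred and without any single library. In rde-11, pos-1 stood at 1312 and 1116 fpm in treated and 3519 and 3264 fpm in untreated RNA (-1.49 ± 0.11 SE, limma adjusted p = 2.48e-05). The change in meg-3 meg-4 lay above that in rde-11 by 0.63 ± 0.21 SE, which did not pass the test in the fit without replicate numbers (limma adjusted p = 0.154). With microRNAs centred the change of pos-1 was 0.71 in meg-3 meg-4, against 2.84 in N2 and 0.30 in rde-11. The median microRNA change at 50 fpm was -1.57 in meg-3 meg-4, against -1.72 in N2 and -1.79 in rde-11.

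The response of other genes to treatment was compared with N2 in the same way. The interaction was called for 81 genes with a higher and 476 with a lower change in meg-3 meg-4, which is 0.492% and 2.89% of 16459 tested, while edgeR, run on reads recovered from the fpm, called 5 higher (0.0317%) and 13 lower (0.0823%). Most of the limma calls concern genes near the read floor in untreated RNA. Of these 557 genes (3.38%), 503 had 3 reads or fewer in some untreated library of either strain, so that the pseudocount largely sets their untreated value, and in 547 the strains differed more in treated than in untreated RNA. Against rde-11 the interaction was called for 200 genes higher (1.21%) and 523 lower (3.16%) by limma, but for 24 higher (0.149%) and 9 lower (0.0558%) by edgeR, so the balance of directions depends on the tool.

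Among the 18 genes that both tools called against N2, 13 had a lower and 5 a higher change in meg-3 meg-4. In 5 of the 18 the change on the fpm scale had opposite directions in the 2 strains and was called in both, and these were pos-1, T05G5.4, T23G11.1, rpr-1 and mir-8191. The RNA of RNase P, rpr-1, was at 774 and 525 fpm in treated and 232 and 242 fpm in untreated RNA of meg-3 meg-4, against 111 and 110.3 fpm in treated and 228 and 264 fpm in untreated RNA of N2. Its untreated values overlapped between the strains, and its treated values were above them in meg-3 meg-4 and below them in N2 (interaction 2.57 ± 0.28 SE, limma adjusted p = 0.00162). T23G11.1 likewise rose with treatment in meg-3 meg-4 and fell in N2, but its untreated values did not overlap between the strains, at 122 and 108 fpm in treated and 21.9 and 19.0 fpm in untreated RNA of meg-3 meg-4, against 24.0 and 22.7 fpm in treated and 31.6 and 43.8 fpm in untreated RNA of N2 (interaction 3.08, limma adjusted p = 0.00126). T05G5.4 showed the reverse, at 2.748 and 2.84 fpm in treated and 10.4 and 10.8 fpm in untreated RNA of meg-3 meg-4, against 71.5 and 61.6 fpm in treated and 11.2 and 13.9 fpm in untreated RNA of N2 (interaction -3.93, limma adjusted p = 5.56e-04). The microRNA gene mir-8191 was low throughout, at 6.98 and 6.06 fpm in treated and 2.39 and 2.48 fpm in untreated RNA of meg-3 meg-4 and 1.43 and 0.477 fpm in treated and 4.16 and 4.34 fpm in untreated RNA of N2.

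The other 13 genes called by both tools rose in N2. The Nudix hydrolase gene ndx-2 was at 6.98 and 7.96 fpm in treated and 2.19 and 3.73 fpm in untreated RNA of meg-3 meg-4, against 409 and 384 fpm in treated and 5.70 and 4.11 fpm in untreated RNA of N2 (interaction -4.96 ± 0.37 SE, limma adjusted p = 4.28e-04). The cadherin gene cdh-1 was at 28.3 and 23.3 fpm in treated and 26.7 and 30.6 fpm in untreated RNA of meg-3 meg-4, a change that was not called, against 206 and 161 fpm in treated and 19.5 and 28.3 fpm in untreated RNA of N2 (interaction -3.05). The gene frm-1, which encodes a FERM domain protein, was at 198 and 204 fpm in treated and 4.18 and 4.97 fpm in untreated RNA of meg-3 meg-4, against 1256 and 1371 fpm in treated and 4.16 and 7.31 fpm in untreated RNA of N2 (interaction -2.47), and the pyruvate kinase gene pyk-1 at 35.7 and 54.6 fpm in treated and 7.97 and 7.66 fpm in untreated RNA, against 329 and 338 fpm in treated and 11.8 and 11.65 fpm in untreated RNA of N2 (interaction -2.36). In these 4 genes treated RNA set the strains apart while the mean untreated levels were within 2-fold of each other. On the other side stood Y57G11C.51, at 1628 and 1612 fpm in treated and 9.36 and 10.8 fpm in untreated RNA of meg-3 meg-4, against 914 and 1141 fpm in treated and 34.6 and 46.8 fpm in untreated RNA of N2, and the snoRNA gene ZK185.9, at 715 and 476 fpm in treated and 45.8 and 33.3 fpm in untreated RNA, against 73.2 and 68.3 fpm in treated and 19.9 and 23.3 fpm in untreated RNA of N2.

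Of the 20 genes with the largest interactions at a mean of at least 50 fpm, 10 in each direction, 3 were called by edgeR too, and 17 had 3 reads or fewer in an untreated library. For most of them the pseudocount therefore bears on the value, and the levels in both kinds of RNA are given here. The gene mltn-3 had 1286 and 1098 fpm in treated and 2.19 and 4.14 fpm in untreated RNA of meg-3 meg-4, against 1.22 and 2.63 fpm in treated and 0 and 0.228 fpm in untreated RNA of N2 (interaction 6.84). B0564.2 had 3255 and 3036 fpm in treated and 9.16 and 8.28 fpm in untreated RNA, against 61.7 and 69.2 fpm in treated and 0 and 0.457 fpm in untreated RNA of N2 (interaction 2.56). In the other direction saeg-1 had 35.1 and 32.0 fpm in treated and 0.199 and 0.207 fpm in untreated RNA of meg-3 meg-4, against 357 and 366 fpm in treated and 0.438 and 0 fpm in untreated RNA of N2 (interaction -3.40), and the mechanosensory channel gene trp-4 11.4 and 16.1 fpm in treated and 0.398 and 0.207 fpm in untreated RNA, against 477 and 499 fpm in treated and 2.63 and 1.598 fpm in untreated RNA of N2 (interaction -3.83). The levels in treated RNA of rde-11 were 3.34 and 1.41 fpm for mltn-3 and 467 and 453 fpm for saeg-1, nearer to those of N2 than to those of meg-3 meg-4. The gene rde-11 itself was at 636 and 631 fpm in treated and 4.60 and 5.94 fpm in untreated RNA of N2, so its small RNAs were more abundant in meg-3 meg-4 with either treatment, and the interaction was 1.18 ± 0.25 SE (limma adjusted p = 0.0355), which edgeR did not call. For sid-1 the interaction was 0.17 ± 0.26 SE (limma adjusted p = 0.897).

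**Figure D5:**
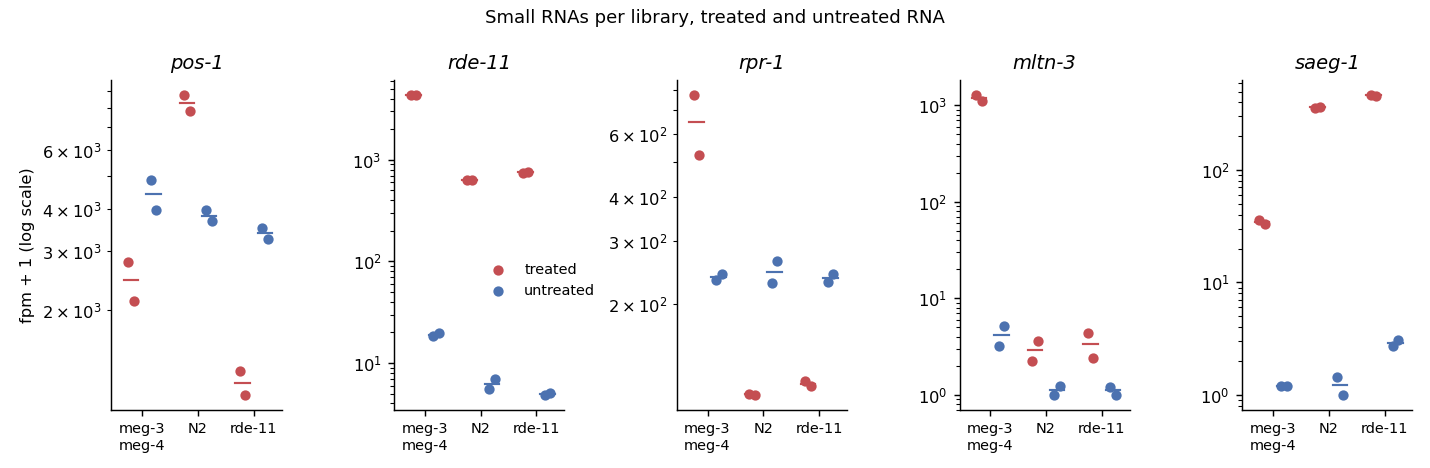
Small RNA level (fpm + 1, log scale) of 5 genes in each library of meg-3 meg-4, N2 and rde-11, treated RNA in red and untreated RNA in blue, with each point a library and each bar the mean of 2. For pos-1 the treated points lie below the untreated ones in meg-3 meg-4 (2776 and 2119.6 fpm treated, 4869 and 3969 fpm untreated) and above them in N2 (8765 and 7819 fpm treated, 3959 and 3679 fpm untreated), and for rpr-1 the order is the reverse. With microRNAs centred the change of pos-1 in meg-3 meg-4 turns positive (0.71).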

How the data were processed

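Small RNA libraries of 3 strains, with and without polyphosphatase treatment, were analysed from 4 deposited tables, each of 1 mutant and N2 for 1 treatment. Per the file headers, the authors' deposited values are fpm (the CPM unit, scaled to the library total). The build ce10 and the tools HTSeq, cutadapt, DESeq2 and Bowtie2 appear in the submitters' processing notes. The sources used here give neither strand nor multi-mapping settings, so 3231 lines identical to another line (at least 50 reads in all, holding 18.0% of fpm) cannot be separated. The 8 columns of averages were not used. All values above 0 were whole reads at a tolerance of 0.01. SD measures the spread between libraries. SE comes from limma, which combines that spread for a gene with a trend over all genes tested. Floors in reads cover counting error only.

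Treated and untreated columns of meg-3 meg-4, from separate tables, were joined by gene. limma 3.58.1 (R 4.3.3, intensity trend) was run on log2(fpm + 1), keeping genes that averaged 1 fpm or more, over 4 libraries, or over 8 for interactions with another strain, with Benjamini-Hochberg adjustment over all genes tested. edgeR 4.0.16 (TMM) and DESeq2 1.42.0 on recovered reads, pseudocounts of 0.5 and 5, other scalings and the omission of single libraries were alternatives. The scripts were tested on simulated data in which most genes did not change, unlike the data here, so that test does not cover this setting. Gene classes and exon overlaps, on either strand, came from the Ensembl annotation of the build WBcel235, which held 99.3% of the identifiers. No coordinates are given because the build differs. Named genes were the largest protein-coding changes past the threshold at 50 fpm (10 each way), taken where treated and untreated values did not overlap. Added to these were the most abundant microRNAs, piRNAs and noncoding genes, the genes of the study and the 20 largest interactions at 50 fpm. Others were chosen after their values were seen. The gene lists and the comparison itself were chosen with earlier results of these data known, so a list's direction is not independent evidence.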

Additional observations from a re-analysis of the deposited data

Results flagged for a closer look

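The change between treated and untreated RNA differed between meg-3 meg-4 and N2, by an interaction term in limma, for pos-1 (-1.97) and for the genes below. All values are log2 differences, the change in meg-3 meg-4 minus the change in N2, and their causes were not tested.

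The genes that edgeR called as well, and lower in meg-3 meg-4, were T25D3.3 at -5.53, ndx-2 at -4.96, F39B2.8 at -4.82, exc-9 at -4.22, T05G5.4 at -3.93, cdh-1 at -3.05, arl-13 at -2.99, T20H4.2 at -2.96, R06C1.4 at -2.91, C55C3.3 at -2.77, frm-1 at -2.47 and pyk-1 at -2.36. Those higher in meg-3 meg-4 were T23G11.1 at 3.08, mir-8191 at 2.60, Y57G11C.51 at 2.57, rpr-1 at 2.57 and ZK185.9 at 2.20. Of the 18 genes that both tools called, T25D3.3, F39B2.8 and exc-9 had 3 reads or fewer in some untreated library, so the pseudocount bears on their values.

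Among the named genes that limma called and edgeR did not, the lower ones in meg-3 meg-4 were meg-4 itself, listed as C36C9.1, at -5.81, the peroxisome assembly gene prx-11 at -4.24, cdk-14, listed as ZC123.4, at -4.05, trp-4 at -3.83, Y38F2AR.12 at -3.58, catp-1 at -3.42, mnp-1 at -3.41, the Axin gene pry-1 at -3.40, saeg-1 at -3.40, the spermidine synthase gene spds-1 at -3.27 and spe-41 at -1.62. Higher ones were mltn-3 at 6.84, F41C3.8 at 5.06, fbxa-125 at 4.06, H14A12.5 at 3.45, Y94H6A.12 at 2.82, B0564.2 at 2.56, B0261.8 at 2.28, T05G5.1 at 2.21 and rde-11 at 1.18. Among these, DESeq2 also called H14A12.5, fbxa-125 and spe-41. Of the 20 largest interactions at 50 fpm or more, 17 had 3 reads or fewer in some untreated library, so the pseudocount bears on their values.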

How the results depend on the processing

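The counts of genes lower in treated RNA depended on the scaling. The 5164 genes lower overall became 36 with microRNAs centred and 1016 by DESeq2, and 6954 with the median gene centred. The protein-coding genes among them became 0, 89 and 1340, the microRNAs 11 and 94 with the first 2 settings, and the piRNAs 20 and 752. The 9087 genes higher stayed between 6581 and 11395 in all settings run, the split of higher against lower being 9087 to 5164 on fpm and 6581 to 6954 with the median gene centred. Leaving out 1 library gave 7294 to 9475 higher and 2931 to 4262 lower, 6800 to 8783 protein-coding genes higher and 406 to 568 lower, 121 to 144 microRNAs lower and 2235 to 3394 piRNAs lower. The change of pos-1 was 0.71 with microRNAs centred, -2.64 with the median gene centred, -1.80 by edgeR, -0.62 and not called by DESeq2, and -1.05 to -0.66 without 1 library. Its interaction ranged from -2.17 to -1.78 against N2 and from 0.43 to 0.82 against rde-11 without 1 library. Interactions against N2, 81 higher and 476 lower, became 40 and 234 with a pseudocount of 0.5, 207 and 1082 with 5, 52 and 309 with no filter, 135 and 309 with the median gene centred, 52 and 497 with microRNAs centred, 5 and 13 by edgeR, 9 and 30 by DESeq2, and 32 to 45 and 187 to 351 without 1 library. Interactions against rde-11, 200 higher and 523 lower, became 24 and 9 by edgeR, 25 and 34 by DESeq2, and 58 to 150 and 130 to 365 without 1 library. The replicate numbers are not stated to pair the libraries. The deviations of replicate 2 from replicate 1 in treated and untreated RNA of meg-3 meg-4 correlated across 1517 genes at 0.67, and those of N2 and rde-11 at 0.40 over 1738 genes and 0.45 over 2017 genes, a hint from the data in all 3 strains, with no p because genes are not independent. With the replicate block, 9158 genes were higher and 5703 lower, interactions became 165 and 712, and the pos-1 interaction against rde-11, 0.63, was called (limma adjusted p = 0.00355). Shares moved by construction without microRNAs, to 74.8% and 10.5% protein-coding and 7.98% and 48.3% piRNA in treated and untreated RNA. With identical lines counted once, piRNAs held 4.32% and 11.5%, and in untreated RNA protein-coding genes 3.95% and microRNAs 69.3%. Single libraries ranged over 55.1 to 61.1% and 3.20 to 3.66% for protein-coding genes, 20.6 to 24.3% and 67.3 to 67.5% for microRNAs, and 5.601 to 6.74% and 15.5 to 16.02% for piRNAs, in treated and untreated RNA. Of 1774 values over 138 named genes, 1633 kept direction and call, 93 lost and 7 gained the call and 41 changed sign. With microRNAs centred these were mir-72 (0.18), mir-80 (0.035), mir-57 (0.19), mir-81 (0.016), mir-64 (0.33), 21ur-3506 (0.043), 21ur-38 (0.068), K01F9.6 (0.035), rrn-2.1 (0.050), alg-3 (0.44), alg-4 (0.023), Y69H2.14 (0.50), col-106 (0.52), col-119 (0.59), col-122 (0.51), col-140 (0.70), col-19 (0.78), col-8 (0.057), fbxa-202 (0.14), mir-83 (0.39), ssp-34 (0.21), ssq-1 (0.22), mir-1 (0.20), lsy-6 (0.033), let-7 (0.078), cdh-1 (1.42). With the median gene centred they were ndx-2 (-0.66), rpr-1 (-0.36), mir-8191 (-0.65), lin-61 (-1.15), wago-10 (-1.49), T25D3.3 (-0.88), F39B2.8 (-0.54), exc-9 (-1.50), T20H4.2 (-1.05), by edgeR lin-61 (-0.26), wago-10 (-0.44), T20H4.2 (-0.15), and by DESeq2 cdh-1 (0.085). Without 1 library, wago-10 ranged from -0.26 to 0.84 and was below 0 without replicate 1 of either treatment. Of the interactions against N2, the sign turned by edgeR for prx-11 (0.64), pry-1 (1.31), spds-1 (1.71), Y94H6A.12 (-1.35), B0261.8 (-3.01) and by DESeq2 for pry-1 (0.015), spds-1 (0.45), Y94H6A.12 (-0.52), B0261.8 (-2.17), none of them called. Where no value shows the cause of such a change, the cause was not tested. With 2 libraries a group and untreated levels near 3 reads, small differences were not detectable.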
